A study of Homo sapiens with 2 samples.

Results

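Fibronectin and 9 further genes of adhesive and matricellular proteins were followed in young and senescent WI-38 cells, a human cell line of diploid fibroblasts from lung. The 10 genes were FN1, ABI3BP, POSTN, TGFBI, TNC, THBS1, THBS2, SPARC, CTGF and CYR61, chosen by name. They make up 10 of the 17965 genes that reached 1 FPKM (fragment counts divided by transcript length and by the library's mapped fragments) in at least 1 library, and all 10 passed that minimum. In the table of 202463 transcripts they hold 147, of which 133 are classed as isoforms of the gene and enter its summed value.

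Total RNA was sequenced from young cells at population doubling level 20 and from senescent cells at level 52. The cells were grown in DMEM, and senescence was replicative, that is, reached by continued division of the line and not by an added agent. Each group is 1 library of 1 line. The spread between cultures is therefore not known, and differences are between 2 libraries and carry no test made here. The authors' q-values and marks of significance, given below, compare the same 2 libraries and do not measure that spread. Where a pair of FPKM values is given without groups, young cells come first. In such bulk RNA, fewer cells that make a transcript and less of it in each cell cannot be told apart.

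Fibronectin is a secreted glycoprotein that cells assemble, through integrins, into fibrils on which collagens and other matrix proteins are laid down. Matricellular proteins are secreted into the same matrix but serve less as its scaffold than as signals: they bind integrins, syndecans and growth factors and change how strongly a cell adheres, migrates or responds to TGF-beta. In fibroblasts many of them are induced by TGF-beta, by mechanical tension through YAP and TEAD, or during wound repair, and fibroblasts are their main source in connective tissue.

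The 10 genes did not move as one group. FN1, ABI3BP, POSTN, TNC and THBS2 were lower by 2-fold or more in the senescent library, none was 2-fold higher, and TGFBI, THBS1, SPARC, CTGF and CYR61 stayed within 2-fold. Calls were made on log2 of senescent over young FPKM with 1 FPKM added to both. Over all measured genes 8.58% were lower and 6.65% higher by this rule, and 15.2% passed it in either direction. The median log2 ratio of the 10 genes was -1.16, beside -0.10 over all 17965 genes. Of the 5 genes within 2-fold, TGFBI was lower in the senescent library and the other 4 were higher.

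**Figure D1:**
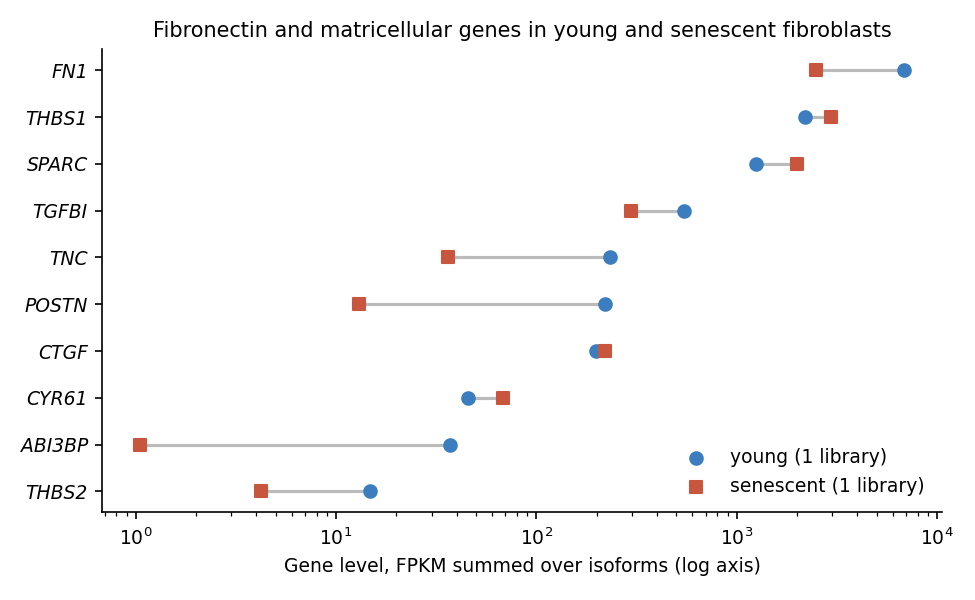
Gene level in FPKM (log axis, summed over isoforms) of the 10 genes in the young library (circles) and the senescent library (squares), 1 library each, so there are no error bars. POSTN, TNC, ABI3BP, FN1 and THBS2 lie lower in the senescent library, and the 2 values of CTGF nearly coincide.

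In the sum over all isoforms FN1 had the highest level of the 10 genes in young and THBS1 in senescent cells. Over coding transcripts only, FN1 was highest in both, at 3642 FPKM beside 614 FPKM for THBS1 in young cells and 1311 beside 821 FPKM in senescent cells. In summed FPKM, which is scaled by transcript length and so allows genes to be ranked, the young order was FN1, THBS1, SPARC, TGFBI, TNC, POSTN, CTGF, CYR61, ABI3BP and THBS2. The senescent order was THBS1, FN1, SPARC, TGFBI, CTGF, CYR61, TNC, POSTN, THBS2 and ABI3BP. Without replicates the error of neighbouring ranks is not known, and the young values of TNC, POSTN and CTGF lay close together. The order also changed with how isoforms were combined. With transcripts weighted by length, young CTGF came next after SPARC, ahead of POSTN, TGFBI and TNC. By the highest isoform alone, SPARC lay above FN1 in senescent cells. FN1 made up 58.9% of the summed FPKM of the 10 genes in young and 30.8% in senescent cells. THBS1 went from 19.1% to 36.6% of that sum and SPARC from 10.8% to 24.6%. The sum itself was 11562 FPKM in the young and 8094 FPKM in the senescent library.

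**Figure D2:**
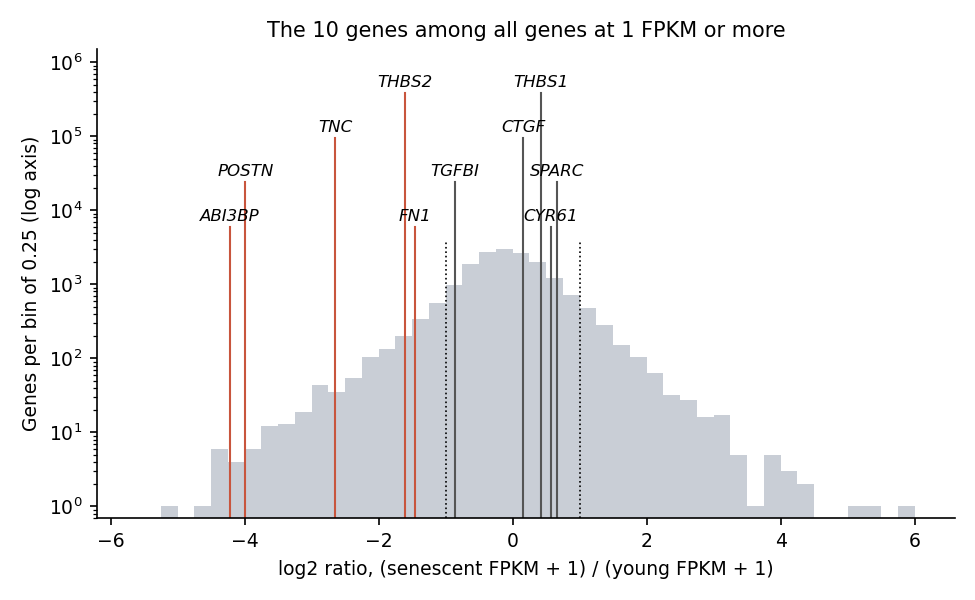
Distribution of the log2 ratio of senescent over young (pseudocount 1 FPKM) over the 17965 measured genes, in bins of 0.25 with a log count axis. Vertical lines mark the 10 genes (orange: 2-fold lower; grey: within 2-fold) and dotted lines the 2-fold limits. ABI3BP and POSTN lie at the far left, at -4.22 and -3.99, and CTGF near the centre at 0.16.

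FN1 (ENSG00000115414), on the minus strand of chr2:216225163-216300895 in hg19, encodes fibronectin. Its summed level was 6809.7 FPKM in the young and 2490.1 FPKM in the senescent library, which is 2.73-fold lower, with a log2 ratio of -1.45. The gene ranked 5 of 17965 in young and 22 in senescent cells, so it stayed among the most abundant transcripts of the cells. All 31 of its isoforms in the sum have the status FAIL in the authors' deposited table, the status that Cuffdiff gives where a numerical failure prevented its test. The table holds 1463 transcripts of status FAIL, and FN1 was the only one of the 10 genes with any among its summed isoforms. The FPKM values of FN1 isoforms are given as deposited, and the authors' program completed no test of them.

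Fibronectin transcripts differ by alternative exons. The best known encode the extra domains EDB and EDA, which are skipped in the plasma fibronectin made by liver and included to varying degrees in the cellular fibronectin made by fibroblasts. In the GENCODE v29 annotation (GRCh38) the EDB exon of 273 bases lies at chr2:215392931-215393203 and the EDA exon of 270 bases at chr2:215380811-215381080, both on the minus strand. Of 10 long coding FN1 transcripts, 3 hold the EDB exon and 5 the EDA exon. The exons were given these names by their order along the gene, and are printed because they separate the long isoforms described next. They read 5′ to 3′ in the direction of the transcript, with the exon in capitals and 12 bases of each neighbouring exon in lower case.
EDB exon: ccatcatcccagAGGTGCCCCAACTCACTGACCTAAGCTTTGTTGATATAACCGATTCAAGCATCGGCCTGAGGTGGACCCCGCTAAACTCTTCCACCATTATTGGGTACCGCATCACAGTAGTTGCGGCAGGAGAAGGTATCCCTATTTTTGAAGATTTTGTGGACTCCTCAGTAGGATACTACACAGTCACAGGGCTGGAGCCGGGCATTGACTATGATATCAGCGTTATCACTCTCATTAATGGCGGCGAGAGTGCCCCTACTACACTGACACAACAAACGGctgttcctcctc
EDA exon: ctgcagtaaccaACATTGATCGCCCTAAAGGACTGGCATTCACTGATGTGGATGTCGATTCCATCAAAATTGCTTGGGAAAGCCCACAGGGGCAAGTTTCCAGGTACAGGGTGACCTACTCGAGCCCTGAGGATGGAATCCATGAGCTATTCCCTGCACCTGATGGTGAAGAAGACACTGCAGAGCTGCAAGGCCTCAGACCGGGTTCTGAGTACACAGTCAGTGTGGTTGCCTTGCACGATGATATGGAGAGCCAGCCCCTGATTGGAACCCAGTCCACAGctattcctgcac

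The long coding isoforms that carry these exons did not have equal ratios. FN1-012, of 7759 bases, holds the EDB exon and not the EDA exon, and stood at 596 FPKM in the young and 35.8 FPKM in the senescent library, a log2 ratio of -4.02. FN1-008, of 7952 bases, holds the EDA exon and not the EDB exon, and stood at 581 and 420.1 FPKM, a log2 ratio of -0.47. FN1-009, of 7762 bases, holds neither and was listed at 0 in young cells and at 99.6 FPKM in senescent cells. FN1-012 and FN1-009 were chosen after their values were seen. Summed over the 10 long coding isoforms, transcripts with the EDB exon made up 50.6% of the FPKM in young and 6.43% in senescent cells, and transcripts with the EDA exon 49.4% and 75.5%. Each of these sums rests on 1 isoform above 0, of status FAIL, so the shares describe how the authors' program divided the fragments and are not a direct count of exon inclusion. Shorter annotated isoforms gave lower values with either exon: FN1-028, of 699 bases and with the EDA exon, stood at 501 and 161 FPKM, and FN1-011, of 3720 bases and with 217 bases of the EDB exon, at 349 and 54.4 FPKM, both named after their values were seen. The exons of assembled isoforms were not analysed here.

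Assembled and retained-intron transcripts carried much of the FN1 value, and transcripts under 1500 bases gave 46.1% of it in young and 47.0% in senescent cells. The isoform of highest young FPKM was an assembled coding one of 3895 bases, related by the table to FN1-002, at 1088 and 261 FPKM. A second assembled isoform, of 5932 bases, stood at 753 and 46.3 FPKM. The retained-intron transcripts FN1-017, of 676 bases, and FN1-031, of 496 bases, stood at 908 and 265 FPKM and at 728 and 305 FPKM. FN1-032, of 695 bases and also a retained-intron transcript, was at 555 and 257 FPKM. Of the 21 FN1 isoforms at 1 FPKM or more, 12 were 2-fold lower, 2 were 2-fold higher and 7 were within 2-fold, beside 13.1% lower and 11.6% higher among all 48676 isoforms at that level. The 2 higher ones were FN1-009 and an assembled isoform of 5668 bases at 21.1 and 159 FPKM, named here after their values were seen. Coding isoforms gave 53.5% of the FN1 sum in young and 52.7% in senescent cells, and retained-intron transcripts 39.2% and 40.9%.

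**Figure D3:**
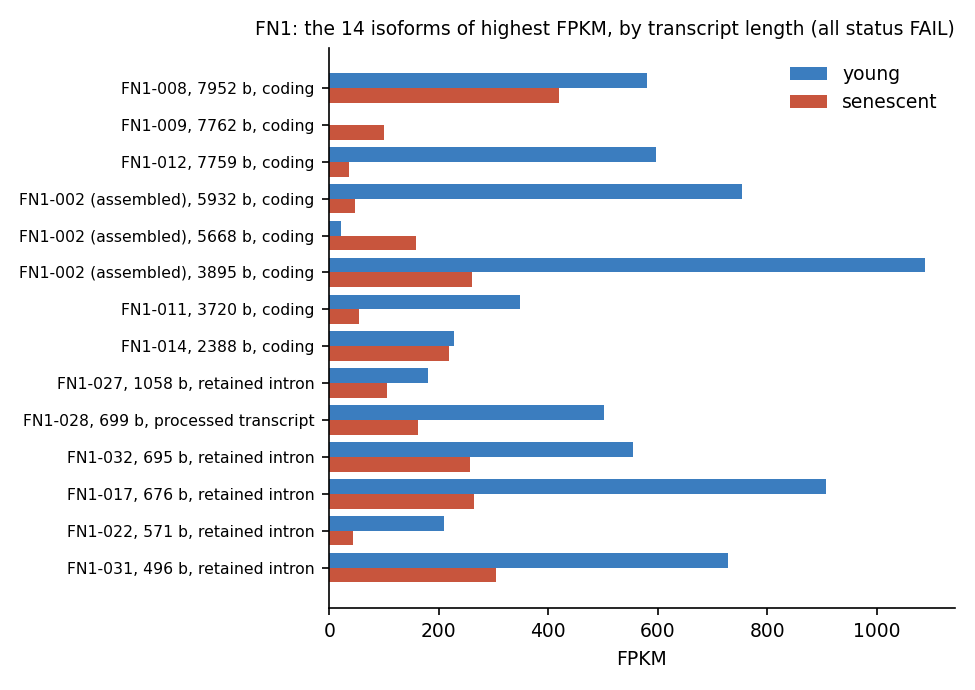
FPKM of the 14 FN1 isoforms of highest value in either library, ordered by transcript length, with young in blue and senescent in orange. All have status FAIL and each bar is a single library. FN1-008 and FN1-014 keep similar values, while FN1-012 and the assembled isoform of 5932 bases are far lower in the senescent library.

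ABI3BP (ENSG00000154175, minus strand of chr3:100468000-100712359) encodes a secreted matrix protein with fibronectin type III domains. It stood at 37.2 FPKM in the young and 1.06 FPKM in the senescent library, a difference of 35.2-fold and a log2 ratio of -4.22. It had the 9th lowest ratio of the 17965 genes. Its rank by level went from 2444 to 15832. All 7 of its isoforms at 1 FPKM or more were 2-fold lower, beside 13.1% among all isoforms at that level. All 7 reached 1 FPKM in the young library only, so that filter fixed their direction. Of the 19 that were tested, 2 are significant and lower in the authors' deposited table, beside 2.03% of all tested isoforms. The most abundant ABI3BP isoform, ABI3BP-010 of 560 bases, stood at 9.14 and 0.475 FPKM, with a q-value of 0.00325 in the authors' deposited table. ABI3BP-022, of 571 bases, was at 6.02 and 0.0697 FPKM, with a q-value of 0.21 there. Transcripts under 1500 bases gave 86.9% of the young value and 56.2% of the senescent value. When each transcript was weighted by its length, the log2 ratio of ABI3BP was -2.33, still lower.

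POSTN (ENSG00000133110, minus strand of chr13:38136720-38183563) encodes periostin, a protein of fasciclin domains that binds collagen, fibronectin and tenascin C and serves as a marker of activated fibroblasts. It stood at 220.5 FPKM in the young and 13.0 FPKM in the senescent library, which is 17.0-fold lower, with a log2 ratio of -3.99. The gene had the 13th lowest ratio of all measured genes and went from rank 353 to rank 5754 by level. All 8 isoforms at 1 FPKM or more were 2-fold lower. POSTN-202, POSTN-004, POSTN-005, POSTN-006 and an assembled isoform of 2588 bases reached 1 FPKM in the young library only, so that filter fixed their direction. POSTN-201, POSTN-203 and an assembled isoform of 2421 bases reached it in both libraries. Isoforms of 1 gene divide its fragments, so their shared direction adds no separate evidence to the summed ratio. Of the 11 tested POSTN isoforms, 5 are significant and lower in the authors' deposited table. Among all tested isoforms there, 2.03% are significant and lower and 1.66% significant and higher.

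The main POSTN isoforms were lower to different degrees. POSTN-203, of 2250 bases, stood at 75.1 and 2.25 FPKM, a difference of 33.4-fold with a q-value of 6.11e-10 in the authors' deposited table. POSTN-201, of 1954 bases, stood at 78.8 and 6.90 FPKM, 11.4-fold lower with a q-value of 7.91e-06 in the authors' deposited table. An assembled isoform of 2421 bases was at 42.2 and 2.64 FPKM, with a q-value of 1.58e-06 there. POSTN-203 thus held 34.1% of the gene's FPKM in young and 17.4% in senescent cells, while POSTN-201 held 35.8% and 53.3%.

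TGFBI (ENSG00000120708, plus strand of chr5:135364584-135399507) encodes the other fasciclin-domain protein of the group, a TGF-beta induced adhesion protein that binds integrins and collagen. Its level was 543 FPKM in the young and 298 FPKM in the senescent library, 1.82-fold lower and within the 2-fold limit at a log2 ratio of -0.86. Over the same isoform sum TGFBI was 2.46 times as abundant as POSTN in young and 23.0 times as abundant in senescent cells. With transcripts weighted by length these ratios were 0.866 and 8.40. Of 16 isoforms, all tested, 14 were lower in the senescent library and 6 of them 2-fold. Among all isoforms at 1 FPKM or more 13.1% were 2-fold lower. TGFBI-014, of 574 bases and the highest in young cells only, stood at 133 and 53.4 FPKM with a q-value of 0.167 in the authors' deposited table. TGFBI-016, of 1034 bases and the highest in senescent cells, was at 109.9 and 68.7 FPKM. The authors' deposited table marks 2 TGFBI isoforms as significant and lower, TGFBI-018 and TGFBI-009. It marks 1 as significant and higher, TGFBI-201, which is listed at 0 in young and at 6.16 FPKM in senescent cells with a q-value of 0.0414. These 3 were named after their values were seen, and TGFBI-201, with 2.07% of the senescent sum, held the largest share of them in either library.

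TNC (ENSG00000041982, minus strand of chr9:117782806-117880536) encodes tenascin C, a large multi-armed glycoprotein that weakens adhesion of cells to fibronectin and appears in wounds and developing tissue. It stood at 234 FPKM in the young and 36.4 FPKM in the senescent library, 6.43-fold lower with a log2 ratio of -2.65. Of its isoforms at 1 FPKM or more, 10 of 10 were lower in the senescent library and 9 of them 2-fold. Among all isoforms at that level 13.1% were 2-fold lower. TNC-001, TNC-007, TNC-202, TNC-002 and an assembled isoform of 2573 bases reached 1 FPKM in the young library only, so that filter fixed their direction. Of the 12 tested TNC isoforms, 8 are significant and lower in the authors' deposited table, beside 2.03% of all tested isoforms. TNC-011, a coding isoform of 6786 bases with 5 of 8 alternative exons of the gene's GENCODE v29 coding transcripts, was at 68.5 and 11.2 FPKM with a q-value of 0.000215 in the authors' deposited table. TNC-009, of 6281 bases with 4 of them, was at 40.3 and 7.31 FPKM with a q-value of 0.000946 there. The short processed transcript TNC-003, of 696 bases, was at 82.0 and 11.3 FPKM with a q-value of 0.0016 there. Over the same isoform sum FN1 was 29.1 times as abundant as TNC in young and 68.4 times in senescent cells. By the highest isoform alone these ratios were 13.3 and 37.3, and with transcripts of every class 13.6 and 28.7.

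A transcript outside the TNC sum was lower by a similar factor. An assembled transcript of 376 bases on the opposite strand to the TNC exons stood at 256 FPKM in the young and 48.4 FPKM in the senescent library, with a q-value of 0.00457 in the authors' deposited table. Whether the reads kept their strand is not stated, so this signal and that of TNC cannot be told apart. A second one, 728 bases within a TNC intron, was at 12.9 and 1.92 FPKM. With transcripts of every class added to the sum, the log2 ratio of TNC was -2.52.

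**Figure D4:**
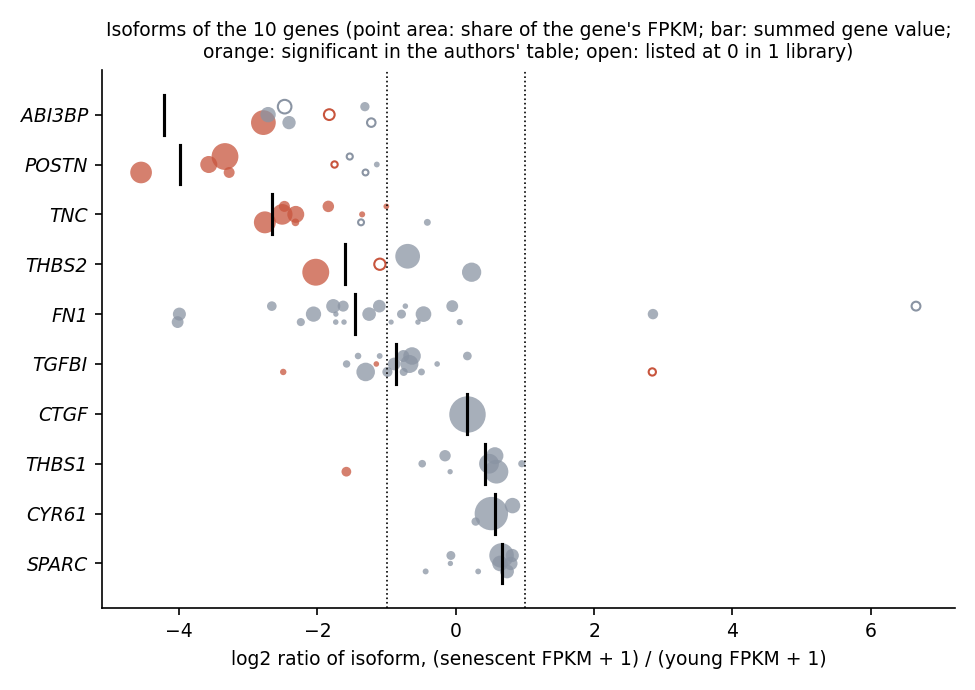
Log2 ratio of senescent over young (pseudocount 1 FPKM) of each isoform that reached 1 FPKM in either library, by gene. Point area gives the isoform's larger share of the gene's FPKM, orange marks significance in the authors' table, open circles mark isoforms listed at 0 in 1 library (their position depends on the pseudocount), black bars are the summed gene ratios and dotted lines the 2-fold limits. The isoforms of ABI3BP, POSTN and TNC lie below 0, those of CYR61 and CTGF above 0, and those of FN1 and TGFBI spread widely. All plotted ABI3BP isoforms and part of those of POSTN and TNC reached 1 FPKM in the young library only.

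The thrombospondins THBS1 and THBS2 are secreted trimers that bind CD47, CD36 and integrins and restrain the growth of blood vessels, and THBS1 can release TGF-beta from its latent form. They differed in level and in direction. THBS1 (ENSG00000137801, plus strand of chr15:39873280-39891667) stood at 2205 FPKM in the young and 2966 FPKM in the senescent library, 1.35-fold higher with a log2 ratio of 0.43, and ranked 16 in both libraries. THBS2 (ENSG00000186340, minus strand of chr6:169615875-169654139) stood at 14.8 FPKM in the young and 4.20 FPKM in the senescent library, 3.52-fold lower with a log2 ratio of -1.60. THBS1 was 149 times as abundant as THBS2 in young and 706 times in senescent cells. The ratio of THBS1 to FN1 was 0.324 in young and 1.19 in senescent cells. It stayed under 1 in both over coding transcripts only, at 0.169 and 0.626, and with transcripts weighted by length, at 0.234 and 0.877, so which of these genes was the higher in senescent cells depends on the short and retained-intron transcripts. Over coding transcripts THBS1 was 42.8 times as abundant as THBS2 in young and 195 times in senescent cells.

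The isoforms of the thrombospondins give the detail behind these sums. The full-length coding transcript THBS1-001, of 7394 bases, stood at 408 FPKM in the young and 604 FPKM in the senescent library, with a q-value of 0.679 in the authors' deposited table. The retained-intron transcript THBS1-006, of 431 bases, was at 815 and 1226 FPKM, and an isoform of 580 bases without a transcript name was at 601 and 838 FPKM. Transcripts under 1500 bases gave 79.0% of the THBS1 value in young and 78.3% in senescent cells. THBS1-008, a retained-intron transcript named after its value was seen, went the other way at 117 and 38.5 FPKM and is the only THBS1 isoform significant in the table the authors deposited, with a q-value of 0.099. For THBS2 the full-length THBS2-001, of 5811 bases, stood at 7.93 and 1.20 FPKM, with a q-value of 0.00392 in the authors' deposited table. Of its assembled isoforms, that of 3794 bases was at 3.68 and 1.89 FPKM and that of 2518 bases at 0.803 and 1.11 FPKM. With annotated isoforms only, the log2 ratio of THBS2 was -2.09.

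SPARC (ENSG00000113140, minus strand of chr5:151040657-151066726), also called osteonectin, binds collagen and calcium and takes part in the folding and assembly of fibrillar collagen. It stood at 1254 FPKM in the young and 1995 FPKM in the senescent library, 1.59-fold higher with a log2 ratio of 0.67, the highest ratio of the 10 genes. It ranked 41 in young and 28 in senescent cells. SPARC was 5.69 times as abundant as POSTN in young and 154 times in senescent cells, and over coding transcripts 1.55 and 41.2 times. None of its 9 tested isoforms is significant in the authors' deposited table, where their smallest q-value is 0.381. The retained-intron transcript SPARC-002, of 1598 bases, was at 557 and 882 FPKM and held 44.4% and 44.2% of the gene's value. SPARC-009, of 218 bases, was at 209 and 327 FPKM. SPARC-001, the longest coding isoform at 3701 bases and named outside the rule for its length, was at 51.7 and 49.2 FPKM, so the higher sum of SPARC came from shorter transcripts.

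CTGF and CYR61, now also named CCN2 and CCN1, encode proteins of the CCN family, which bind integrins and heparan sulfate and are classical targets of YAP and TEAD. CTGF (ENSG00000118523, minus strand of chr6:132269316-132272513) stood at 198 FPKM in the young and 221 FPKM in the senescent library, a log2 ratio of 0.16. Its single isoform has a q-value of 0.907 in the authors' deposited table. CYR61 (ENSG00000142871, plus strand of chr1:86046444-86049645) stood at 45.5 FPKM in the young and 68.1 FPKM in the senescent library, a log2 ratio of 0.57. All 3 of its isoforms were higher in the senescent library without being significant, the smallest q-value in the authors' deposited table being 0.486. CYR61-001, of 2290 bases, was at 38.1 and 54.8 FPKM, and the shorter coding isoform, of 1336 bases, at 5.90 and 11.2 FPKM. CTGF was 4.34 times as abundant as CYR61 in young and 3.25 times in senescent cells, the smallest shift of the pairs of related genes compared here.

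Promoter sequence was read for 9 of the 10 genes from RefSeq (GRCh38.p14), over the 250 bases before the transcription start. The letters GGAATG, the core that TEAD factors recognise, were searched on both strands. They occurred 3 times before CTGF, 2 times before THBS2, 1 time before THBS1 and 1 time before SPARC, and not in the windows of FN1, ABI3BP, POSTN, TGFBI or TNC. Over 35116 RefSeq promoters of the same length, 11.9% held at least 1 match, 0.940% at least 2 and 0.0826% at least 3. The windows of CTGF and of the thrombospondins are printed because CTGF holds the most matches and the thrombospondin genes differed in direction. In CTGF the matches begin 169, 104 and 95 bases before the start, in THBS2 103 and 91, and in THBS1 46. Each window reads 5′ to 3′ along the gene, with GGAATG or its reverse complement CATTCC in capitals: CTGF at chr6:131951373-131951622 (minus strand), THBS1 at chr15:39580829-39581078 (plus strand) and THBS2 at chr6:169253847-169254096 (minus strand).
CTGF: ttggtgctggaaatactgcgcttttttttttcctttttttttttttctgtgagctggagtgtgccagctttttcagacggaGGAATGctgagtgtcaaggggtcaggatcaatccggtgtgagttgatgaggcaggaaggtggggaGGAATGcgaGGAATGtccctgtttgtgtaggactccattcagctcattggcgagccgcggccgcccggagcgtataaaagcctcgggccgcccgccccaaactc
THBS1: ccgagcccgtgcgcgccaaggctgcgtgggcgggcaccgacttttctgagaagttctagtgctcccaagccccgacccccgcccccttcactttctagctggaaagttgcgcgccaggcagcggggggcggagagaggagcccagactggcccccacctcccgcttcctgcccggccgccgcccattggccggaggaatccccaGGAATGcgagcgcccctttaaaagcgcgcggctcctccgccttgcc
THBS2: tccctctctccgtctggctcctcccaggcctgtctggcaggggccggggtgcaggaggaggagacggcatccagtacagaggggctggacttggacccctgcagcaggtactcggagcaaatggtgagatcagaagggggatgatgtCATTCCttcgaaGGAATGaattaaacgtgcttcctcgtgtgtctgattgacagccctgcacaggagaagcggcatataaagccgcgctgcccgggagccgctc

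Any relation between these letters and the ratios was not tested. THBS1, SPARC and CTGF, with matches, were within 2-fold, as was TGFBI without one. THBS2, with 2 matches, was 2-fold lower, as were FN1, ABI3BP, POSTN and TNC without one. By sign alone the genes without a match, TGFBI included, were all lower in the senescent library. Of those with a match only THBS2 was lower. The letters CAGAC, which SMAD proteins can bind, occurred 3 times before THBS2 and 1 time each before CTGF, THBS1, TNC and POSTN, and 38.0% of all promoters held at least 1. The CArG box bound by SRF was found in none of the 9 windows and in 1.16% of all promoters. A match is a description of the letters only, and promoter activity was not measured.

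The wider families of the 10 genes were examined next, from lists compiled for the study of this group. These lists were chosen with earlier results of these data known. Their counts stand beside 8.58% of all measured genes 2-fold lower and 6.65% 2-fold higher. In the CCN family 3 of 6 genes were measured, and the third, NOV, stood at 6.62 FPKM in the young and 22.5 FPKM in the senescent library, 2-fold higher. THBS3, the remaining measured thrombospondin, was within 2-fold at 20.8 and 17.2 FPKM. In the SPARC family FSTL1, a secreted glycoprotein, was within 2-fold at 272 and 297 FPKM, and SPOCK1, a proteoglycan, was 2-fold higher at 4.43 and 11.5 FPKM, a call that 4 other settings did not give, at log2 ratios of 0.70 to 0.81. TNC was the only measured tenascin and POSTN and TGFBI the only measured genes with fasciclin domains. Of 14 measured genes for other adhesive glycoproteins, 5 were 2-fold lower and 2 higher, with a median log2 ratio of -0.86. Among them the fibulin gene FBLN1 was at 668 and 18.6 FPKM, the matrilin gene MATN2 at 31.8 and 4.27 FPKM, and the galectin gene LGALS1, within 2-fold, at 3229.6 and 1719.98 FPKM.

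Collagens and other partners of fibronectin were mostly lower, as FN1 was. Of 16 measured genes for matrix proteins that bind fibronectin and for enzymes that crosslink or process the matrix, 11 were 2-fold lower and none was 2-fold higher, with a median log2 ratio of -1.41. Among all measured genes 8.58% were 2-fold lower and 6.65% higher. The collagen I genes COL1A1 and COL1A2 stood at 3994 and 1242 FPKM and at 1739.6 and 848 FPKM, and the collagen VI genes COL6A1 and COL6A2 at 1145 and 151 FPKM and at 429 and 49.9 FPKM. COL1A2, at a log2 ratio of -1.04, fell short of 2-fold under 4 other settings, among them scaling by the median ratio at -0.95.

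Genes for receptors of these proteins were divided. Of 21 measured receptor genes, 5 were 2-fold higher, 2 were lower and 14 were within 2-fold, with a median log2 ratio of 0.49. ITGB1, the beta subunit of the main fibronectin receptors, stood at 871 FPKM in the young and 1563 FPKM in the senescent library, within 2-fold. ITGA6, a laminin receptor subunit that CYR61 also engages, was at 41.5 and 185 FPKM. CD36, a receptor of the thrombospondins, was at 0.529 and 7.77 FPKM, and ANXA2, which binds TNC, at 837 and 1496 FPKM. The 2 lower ones, named after their values were seen, were ITGB8 at 9.57 and 1.68 FPKM and SDC1 at 11.3 and 4.16 FPKM.

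**Figure D5:**
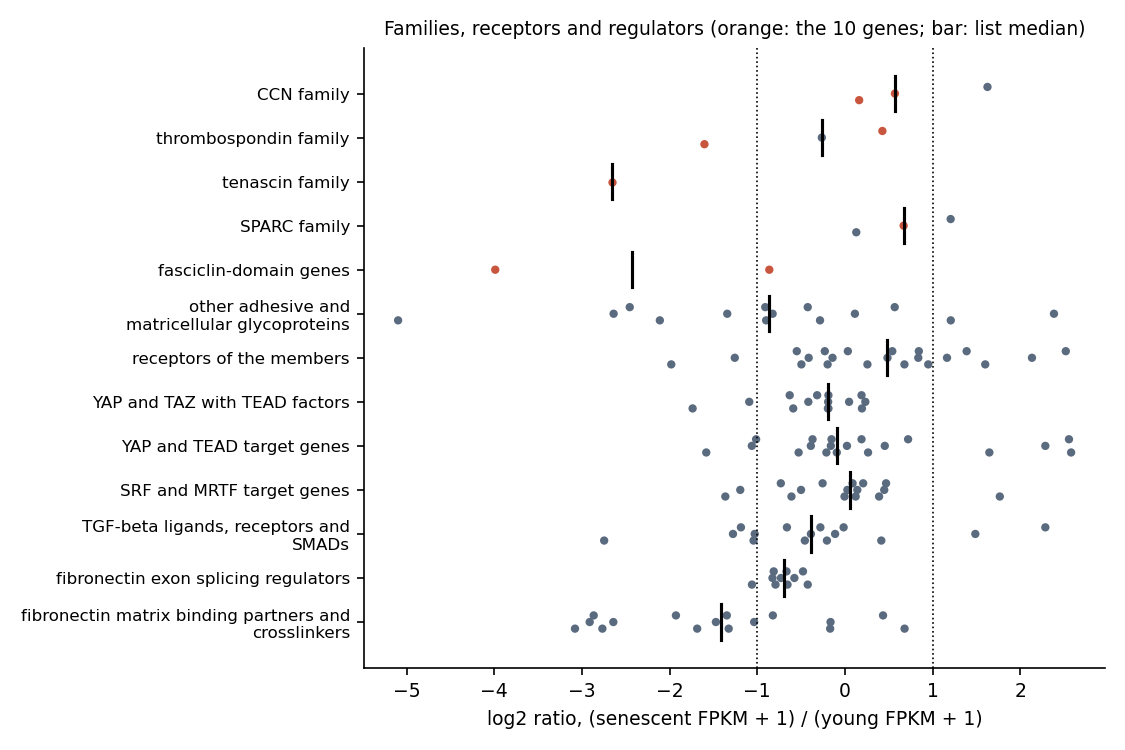
Log2 ratio of senescent over young (pseudocount 1 FPKM) of every measured gene in the lists of families, receptors and regulators, 1 row per list. Orange points are genes of the group of 10, bars are list medians and dotted lines the 2-fold limits. Partners of fibronectin lie mostly to the left, at a median of -1.41, and receptors spread to both sides around a median of 0.49.

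Regulators of the 10 genes were described from the same table. Of 14 genes for YAP, TAZ, TEAD factors, their cofactors and the upstream kinases, none was 2-fold higher and 2 were lower, TEAD2 at 18.4 and 8.10 FPKM and AMOT at 9.04 and 2.01 FPKM. TEAD2 was within 2-fold with a pseudocount of 5 FPKM, at a log2 ratio of -0.84, and by its highest isoform, at -0.81. WWTR1, which encodes TAZ, was at 115 and 101 FPKM and TEAD1 at 77.8 and 68.0 FPKM. Of 19 measured targets of YAP and TEAD outside the 10 genes, 4 were higher, 3 lower and 12 within 2-fold, with a median log2 ratio of -0.09. ANKRD1 was at 0.252 and 6.49 FPKM, the tissue factor gene F3 at 26.7 and 162 FPKM and CRIM1 at 115 and 361 FPKM, all 3 higher. The remaining higher target was TGFB2, which is counted again among the TGF-beta genes below. LATS2, within 2-fold, is counted both as a target and among the upstream kinases. The 3 lower ones, named after their values were seen, were RBMS3 at 28.9 and 8.98 FPKM, NUAK2 at 3.31 and 1.06 FPKM and AMOTL1 at 35.0 and 16.8 FPKM. With transcripts of every class CRIM1 was within 2-fold at a log2 ratio of 0.94.

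TGF-beta genes were likewise divided. Of 15 measured ligands, receptors, latency proteins and SMADs, 2 were 2-fold higher, 5 lower and 8 within 2-fold, with a median log2 ratio of -0.39. The ligand gene TGFB2 was higher at 9.31 and 49.3 FPKM, and LTBP4, which tethers latent TGF-beta to the matrix, was lower at 114 and 16.1 FPKM. LTBP1 was within 2-fold at 646 and 597 FPKM, as was SMAD3 at 185 and 135 FPKM. Of 16 SRF and MRTF targets, which include contractile genes, 1 was higher, 2 lower and 13 within 2-fold, with a median log2 ratio of 0.06. FILIP1L was the higher one at 72.4 and 249 FPKM, and CNN2 was lower at 230 and 88.6 FPKM.

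Genes for SR proteins and other splicing regulators were listed because several of them act on the fibronectin extra domains, and the measured ones were mostly lower by less than 2-fold. Of 10 measured genes, KHDRBS1 was 2-fold lower at 56.7 and 26.7 FPKM, the other 9 were within 2-fold, and the median log2 ratio was -0.70. The call of KHDRBS1 was lost under 4 other settings, at log2 ratios of -0.98 to -0.87. RBFOX2 stood at 257 and 148 FPKM, TRA2B at 43.9 and 24.3 FPKM and SRSF5 at 114 and 84.7 FPKM. The direction of TRA2B turned from a log2 ratio of -0.83 to 0.47 with coding transcripts only. These values stand beside the FN1 isoforms given above, and any part of the splicing genes in them was not tested.

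The identity of the cells was checked on marker lists. All 12 fibroblast markers were measured, with a summed level of 10874 FPKM in the young and 5982 FPKM in the senescent library. Of them 5 were 2-fold lower and 7 within 2-fold, beside 8.58% lower among all measured genes. The lower ones were COL1A1, COL1A2, COL3A1, DCN and FAP, and all but FAP were also counted among the partners of fibronectin. VIM, PDGFRA, PDGFRB and THY1 were among those within 2-fold. Of the epithelial markers 4 of 10 were measured, summing to 23.9 and 16.9 FPKM over the list. KRT19 was at 11.5 and 1.37 FPKM, KRT18 at 2.84 and 6.75 FPKM and MUC1 at 6.38 and 6.49 FPKM. KRT5, SFTPC and NKX2-1 were at 0 in both libraries. The endothelial list, 2 of 6 found genes measured, summed to 21.1 and 9.94 FPKM. Most of it was TEK at 18.8 and 8.16 FPKM, and CDH5 was at 0 in both. The blood list, 4 of 8 measured, summed to 72.2 and 64.3 FPKM. Most of it was CD163 at 53.9 and 40.3 FPKM and CD68 at 14.3 and 21.1 FPKM, with CD3E at 0. The smooth muscle list, 5 of 6 measured, summed to 1079 and 547 FPKM, mostly ACTG2 at 999.6 and 444 FPKM. The effective depth, read from the steps between low values, was 15900000 fragments in young and 14800000 in senescent cells. At 2000 bases 1 fragment was worth 0.0349 FPKM in the young and 0.0375 FPKM in the senescent library, so low values, such as that of ABI3BP in the senescent library, rest on few fragments.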

How the data were processed

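Per the labels' protocols, Trizol-extracted total RNA was amplified by NuGEN Ovation V2 chemistry, which covers transcripts with and without polyA, and made into Illumina libraries. The submitters' processing notes name TopHat2 2.0.6, Cufflinks 2.0.2 and Cuffdiff with the build hg19, and the annotation and strand are not given in the sources used here. The authors deposited 1 table of transcripts with an FPKM per library, a p-value, a q-value, a status and the length in bases, per the file headers. In the file, isoforms are significant at status OK and a q-value under 0.1. The column for old cells was taken as the senescent library. A gene's value was the FPKM sum over annotated, assembled and contained isoforms. A pseudocount of 1 FPKM was added before log2, a gene was measured at 1 FPKM in at least 1 library and called at 2-fold, and folds given as such are plain FPKM ratios. With 1 library per group no test was made, and 15 alternatives were tried, 12 planned and 3 added after seeing the data. Depth came from the steps of unnamed single-transcript loci, whose length was reduced by 200 bases: 89.0% of 1204 young and 90.5% of 1743 senescent values were whole fragments within 0.05.

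Named isoforms held 10% of their gene's value or were its 2 highest. From each list the 2 genes of highest mean FPKM and the 2 of largest ratio could be named. The genes and lists were chosen with earlier results of these data known. ITGB3, AJUBA and PECAM1 were on the lists but were not found under those names, so they were not analysed here. Isoforms were matched to GENCODE v29 by transcript identifier and equal length. Python 3.11.15, pandas 2.3.3, numpy 2.4.6 and matplotlib 3.10.9 were used, and the calculation was tested on simulated data.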

Additional observations from a re-analysis of the deposited data

How the results depend on the processing

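No paired analysis was possible because each group holds 1 library. Of the 10 genes, 5 were 2-fold lower and 0 higher under the other pseudocounts, scalings, filters and gene values tried, except that with status OK only FN1 had no value and 4 of 9 genes were lower, and that at 1.5-fold 6 were lower and 1, SPARC, was higher. Every one of the 10 kept the sign of its log2 ratio. The ratio ran from -5.01 to -2.33 for ABI3BP, from -2.09 to -1.10 for THBS2, from -1.47 to -1.29 for FN1 and from 0.15 to 0.25 for CTGF. Over all genes, 1541 lower and 1195 higher became 2492 lower with a pseudocount of 0.1 FPKM, 499 lower and 464 higher with 5 FPKM, 911 and 751 at a minimum of 5 FPKM, and 3653 and 2611 at 1.5-fold. With coding transcripts only, an alternative chosen after seeing the data as were length weighting and the sum over every class, 977 were lower. The share of calls that were higher was 43.7%, 50.1% after scaling by the median ratio, which itself centres the ratios, and 36.9% with transcripts of every class. Among other named genes 431 of 454 values kept their call, 15 lost it (COL1A2, CRIM1, KHDRBS1, SPOCK1 and TEAD2) and 8 gained one. No called gene changed sign, while TRA2B, within 2-fold, turned from -0.83 to 0.47 with coding transcripts only.

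Depth limits the low values, and the status FAIL limits the FN1 isoforms. Retained-intron and short transcripts weigh in the sums as much per FPKM as full-length ones.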
